A study of Homo sapiens with 12 samples.

Results

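Ribosome biogenesis genes encode the machinery that makes ribosomes: RNA polymerase I, the particles that fold, cut and modify the ribosomal RNA, and the factors that turn pre-ribosomes into the small and the large subunit. A list of 50 such genes was read by gene symbol from expression arrays of 3 human lung cancer cell lines, and 47 of them had a probe set that carries their symbol alone. All 47 were among the 16205 genes tested, of 18132 genes with such a probe set. EBNA1BP2 and GNL3 were not analysed here, and the probe set of PWP2 carries another gene symbol beside it and was left out. Where a gene had several probe sets, the brightest over the 12 arrays stands for it, and the others were read for agreement.

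The lines are H1650, H1693 and H1993, non-small cell lung cancer lines that the submitters chose for high MARK2, a protein kinase known for its action on proteins that bind microtubules. Each was transduced with a lentivirus carrying an shRNA against MARK2 (knockdown) or with the empty vector pLKO (control), so every group, the controls included, carries a lentiviral vector. Each of the 6 groups has 2 arrays of separate biological replicates per the series' design text, and p-values therefore rest on the spread between such cultures. For each gene this spread was pooled over all 6 groups, so tests in H1693 and H1993 also carry the spread of the H1650 arrays. The sources used here name neither the hairpin's sequence, nor the number of hairpins, nor the time after transduction. The study asks what MARK2 knockdown does to gene expression. Since RNA of a whole culture was read, a change in the RNA per cell and a change in the make-up of the culture cannot be told apart.

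Ribosome production starts in the nucleolus, where RNA polymerase I transcribes a long precursor of the ribosomal RNAs. The small subunit processome assembles on its first part as it emerges, small nucleolar ribonucleoproteins (snoRNPs) guide chemical modification and cleavage, and separate sets of factors build and export each subunit. Growing and dividing cells, tumour cells among them, spend much of their energy on this pathway, and its genes are known to be transcribed together.

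Some facts of the arrays bear on all that follows. MARK2 signal fell to 41.6% of control in H1693 and to 19.6% in H1993, changes of -1.27 and -2.35 on the log2 scale. In H1650 it was at 81.8%, a change that did not pass the threshold (limma adjusted p = 0.156). MARK2 was at 6.07 and 5.80 on the H1650 control arrays, against control means of 7.86 in H1693 and 9.12 in H1993. The H1650 values lie near the log2 signal of 5 set as the lower limit for testing, so little of a fall could be read there. The dimmer probe set of MARK2, with a mean signal of 5.07, was at -0.58 in H1693, -2.12 in H1993 and 0.03 in H1650. In the H1650 controls this dimmer probe set averaged 4.50. RNA integrity set H1650 apart: the 3' minus 5' signal of the GAPDH control probe sets (log2), which grows as RNA is broken, was 2.68 ± 0.56 (SD, n = 2) in its control and 6.82 ± 0.07 in its knockdown arrays, against -0.12 to 0.02 on all 8 arrays of H1693 and H1993. H1650 is therefore described on its own below, and H1693 and H1993 carry the account. All 6 epithelial markers were above a log2 signal of 5 in every group, with a mean over the list of 12.91 to 13.95 on the arrays of H1693 and H1993. It was 12.92 to 12.97 on the control and 12.01 to 12.10 on the knockdown arrays of H1650. By limma 4 of the 6 fell in H1650, where KRT8 averaged 11.66 with the empty vector and 7.19 with the hairpin, and 2 rose in each of H1693 and H1993, CDH1 in both. Of 5 fibroblast markers tested, 3 were higher after knockdown in H1693 and 2 in H1993. Their mean over all 6 measured moved from between 7.93 and 7.95 to between 8.29 and 8.32 in H1693, and from between 5.44 and 5.51 to between 5.93 and 5.99 in H1993, with DCN under 5 in every group. The called ones were LUM and COL1A1 in both lines, with COL3A1 in H1693. In the control and knockdown arrays, LUM was at 10.92 and 11.86 on average in H1693 and at 3.74 and 5.74 in H1993, COL1A1 at 9.85 and 10.52 and at 8.11 and 8.70, and COL3A1 at 10.42 and 11.04 in H1693. Of 4 leukocyte markers tested, LYZ rose in H1993 and CD68 fell in H1693. PTPRC was under 5 in every group, while CD68 ran from 7.40 to 11.50 and CD14 from 5.07 to 8.72 over the group means. None of 4 endothelial markers was called in any line by limma. The part of these markers in the results below was not tested.

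Ribosome biogenesis genes were lower after knockdown in both lines with intact RNA. In H1693, 38 of 47 fell and none rose by limma, where 15.9% of all genes tested fell and 17.1% rose. The median change was -0.50 on the log2 scale, on which -1 is a halving, against -0.02 over all genes. In H1993, 25 of 47 fell and none rose, where 14.5% of all genes fell and 18.9% rose, with a median of -0.27 against 0.02 over all genes. For the mean of both lines, 41 fell and none rose (18.7% of all genes fell and 22.4% rose), with a median of -0.36. A gene was called where its adjusted p from limma, fitted over all genes and arrays, was under 0.05. Both knockdown arrays lay below both control arrays for 46 of 47 genes in H1693, where 36.1% of all genes did, and for 37 of 47 in H1993, where 29.0% did. In H1693 and H1993 together, 22 genes fell in both lines, which is 46.8% of the 47, against 6.94% of all genes. Another 16 fell in H1693 and were not called in H1993, and 3 fell in H1993 and were not called in H1693. When the H1650 arrays were left out of the fit, the counts of falls were 40 in H1693, 28 in H1993 and 42 for their mean. The shares of all genes given above belong to the fit with the H1650 arrays. The higher counts without them are therefore not read as a stronger fall of the list against all genes. At an unadjusted p under 0.05, limma found 1 rise in H1693, that of NOP10 at 0.23, 0 in H1993 and 0 for the mean. NOP10 passed after adjustment too when the H1650 arrays were left out, when each line was fitted alone and after quantile normalisation.

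**Figure D1:**
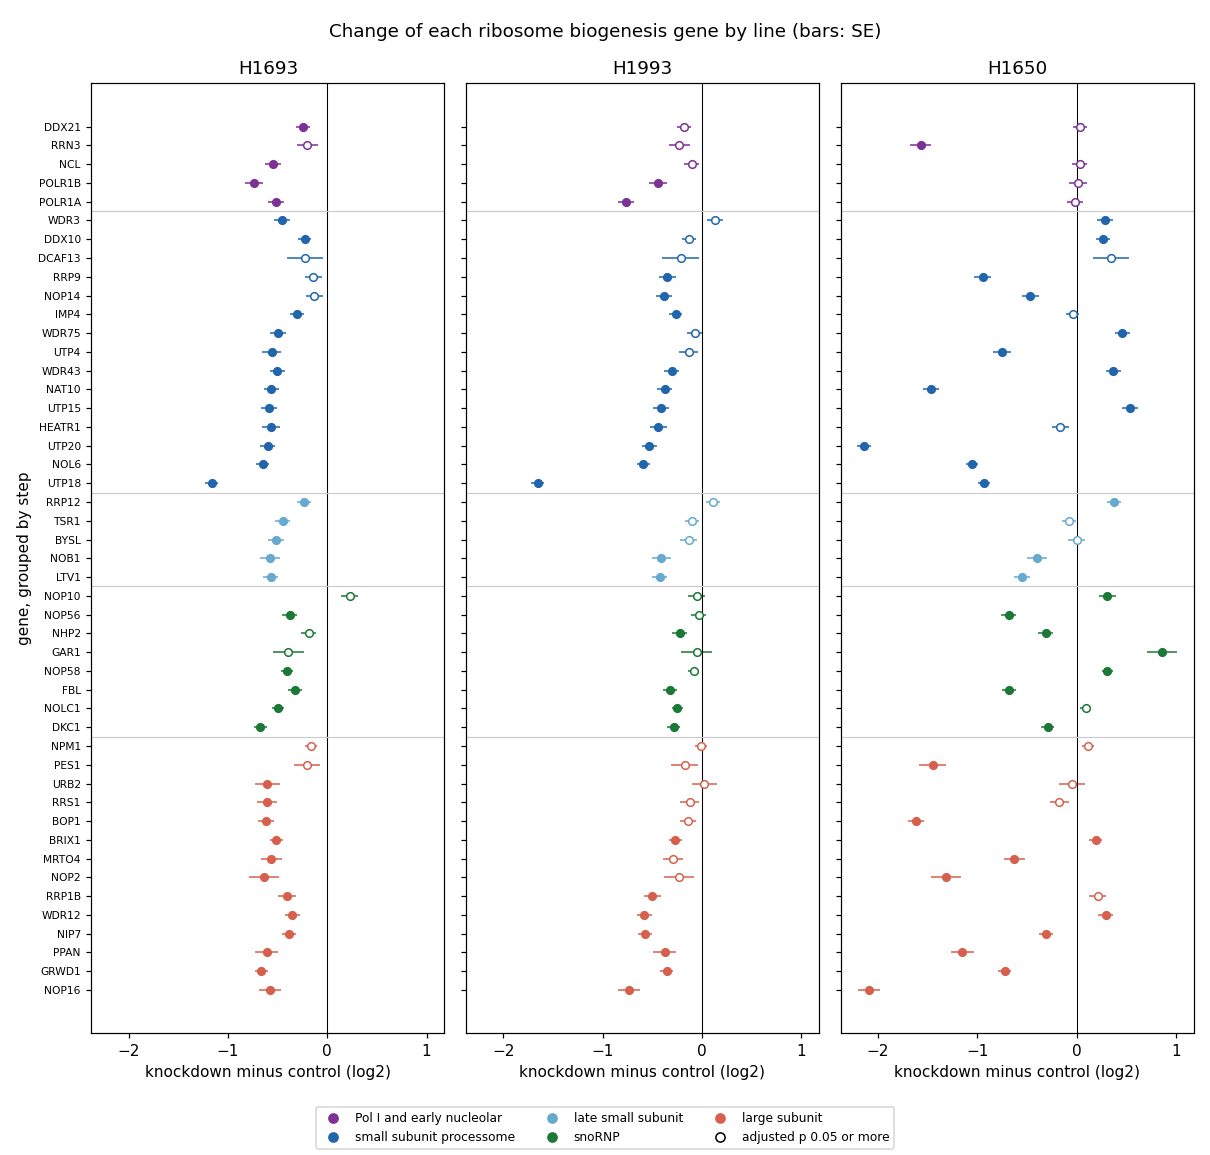
Change of each of the 47 genes (knockdown minus control, log2, on the x axis) in each line, grouped by step on the y axis. Points are estimates from limma with bars for the SE, and filled points have an adjusted p under 0.05. Nearly all points lie left of 0 in H1693, fewer are filled in H1993, and in H1650 the points spread to both sides.

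Of 5 genes of RNA polymerase I transcription and the early nucleolus, 4 fell in H1693 (median -0.52) and 2 in H1993 (median -0.23), and all 5 fell for the mean of both lines. POLR1A, the largest subunit of the enzyme, was at 9.67 and 9.65 (log2 signal) on the H1693 control arrays and at 9.12 and 9.17 after knockdown, and in H1993 at 9.32 and 9.32 against 8.55 and 8.56. The groups do not overlap in either line, and the knockdown arrays hold 69.8% and 58.7% of the control signal (changes of -0.52 and -0.77, SE 0.08 each, limma adjusted p = 0.000787 and 6.82e-05). Its dimmer probe set was at 0.06 in H1693 and -0.80 in H1993, so the fall in H1693 rests on the brighter one. POLR1B, the other subunit that lines the active site, went from 9.96 and 9.78 to 9.12 and 9.14 in H1693 and from 10.25 and 10.28 to 9.88 and 9.78 in H1993. Its changes were -0.74 (SE 0.09, adjusted p = 0.000212) and -0.44 (adjusted p = 0.00408), and all of its 6 probe sets were negative in both lines, from -0.74 to -0.35 in H1693 and from -0.54 to -0.31 in H1993. NCL, nucleolin, an abundant RNA-binding protein of the nucleolus, fell by 0.55 in H1693 (adjusted p = 0.000482) and was at -0.10 in H1993 (adjusted p = 0.369). DDX21, an RNA helicase that acts in polymerase I transcription and ribosomal RNA processing, had the smallest change of the mean, -0.21 (SE 0.05, adjusted p = 0.00637), and did not pass in H1993 (adjusted p = 0.0745). RRN3, the factor that brings polymerase I to its promoter, was at -0.20 and -0.23 in H1693 and H1993, passed for neither line alone and passed for their mean (adjusted p = 0.0411).

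The small subunit processome held the gene with the largest fall of the list. UTP18, a WD-repeat protein of this particle, was at 13.15 and 13.07 on the control and 11.90 and 11.99 on the knockdown arrays of H1693. In H1993 it was at 12.19 and 12.16 against 10.54 and 10.51. All knockdown arrays lie far below their controls, by 1.17 (SE 0.06, limma adjusted p = 2.81e-06) and 1.65 (SE 0.06, adjusted p = 2.98e-07), which leaves 44.6% and 31.8% of the signal. Its other probe set moved alike, at -1.21 and -1.30. The next fall of the mean of both lines in this step was that of NOL6 at -0.62.

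NOL6, a nucleolar RNA-associated protein of the same particle, went from 8.71 and 8.67 to 8.05 and 8.02 in H1693 and from 9.76 and 9.79 to 9.15 and 9.21 in H1993. These are changes of -0.65 (adjusted p = 4.96e-05) and -0.59 (adjusted p = 8.06e-05), and its 7 probe sets ran from -0.65 to -0.02 in H1693 and from -0.65 to -0.03 in H1993. UTP20, a long scaffold protein, went from 8.91 and 8.85 to 8.24 and 8.32 in H1693 and from 7.95 and 8.03 to 7.44 and 7.48 in H1993 (changes of -0.60 and -0.53, adjusted p = 0.000216 and 0.000429). HEATR1 and UTP15, which belong to the subcomplex that binds the start of the precursor first, fell by 0.57 and 0.58 in H1693 and by 0.44 and 0.42 in H1993. Of the same subcomplex, WDR43 fell in both lines, and UTP4 and WDR75 fell in H1693. UTP15 has another probe set nearly as bright, with a mean of 9.01 against 9.13, at -0.17 in H1693 and -0.23 in H1993. Its dimmest probe set was at -0.12 and -0.49, so the size of its fall in H1693 rests on the brightest. HEATR1 did not pass in either line when all its probe sets were averaged (-0.24 and -0.07), and its 2 dim probe sets lie under a mean of 5. Its other well-expressed probe set, with a mean of 9.5, was at -0.09 in H1693 and -0.11 in H1993. The falls of HEATR1 therefore rest on its brightest probe set. NAT10, the acetyltransferase of the small subunit RNA, fell by 0.56 and 0.37, with all 3 probe sets negative. In all, 12 of 15 processome genes fell in H1693 (median -0.50) and 10 in H1993 (median -0.35). WDR3 had the smallest called change of the mean, -0.16 (adjusted p = 0.0448): it fell in H1693, by 0.46, and was at 0.13 in H1993. DCAF13, at -0.22 for the mean, was the processome gene that did not pass there (adjusted p = 0.218), and its knockdown arrays in H1693 lay apart, at 9.73 and 10.07 against controls of 10.14 and 10.11.

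The promoters of the list hold a known letter pattern, the E-box, in a larger share than all promoters do, and stretches of 5 of them are shown for that reason. Promoter windows from RefSeq (GRCh38.p14), 250 bases before to 50 after the start of transcription, were at hand for 39 of the 47 genes. They were searched for the E-box CACGTG, which reads the same on both strands, so a match on one strand is a match on the other and no other motif was searched. Where a gene had several windows, only the first listed was searched. The E-box was found in 16 of 39 windows, or 41%. It was in 8.88% of 15843 protein-coding genes with a window and in 7.43% of all 27305 genes with a window. In all 16 a copy starts within 50 bases of the transcription start, which holds for 3.46% of protein-coding genes. By step, 9 of 14 processome windows held it, 2 of 4 of late small subunit genes, 2 of 6 of snoRNP genes, 3 of 10 of large subunit genes and 0 of 5 of polymerase I genes. The 60 bases below lie before the start, are written 5′ to 3′ on the strand of the gene, and have the E-box in capitals.
UTP18: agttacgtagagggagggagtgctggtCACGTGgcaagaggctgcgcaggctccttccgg
UTP20: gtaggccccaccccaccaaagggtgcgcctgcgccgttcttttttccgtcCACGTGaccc
NAT10: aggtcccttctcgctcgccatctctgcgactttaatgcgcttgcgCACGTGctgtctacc
UTP4: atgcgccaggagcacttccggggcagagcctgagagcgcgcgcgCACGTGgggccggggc
NOP10: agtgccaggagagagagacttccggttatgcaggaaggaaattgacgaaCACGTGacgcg
These are chr17:51260430-51260489 (plus strand), chr12:101280045-101280104 (plus), chr11:34105569-34105628 (plus), chr16:69132589-69132648 (plus) and chr15:34343137-34343196 (minus) on GRCh38.p14, all before the start of transcription. The E-box starts 89 bases before the start in UTP18, which has another copy 4 bases past it, and 10, 15, 16 and 11 bases before the start in UTP20, NAT10, UTP4 and NOP10. NOP10 is shown because it holds the pattern, in 2 copies, and did not fall. The median change in H1693 was -0.54 for the 16 genes with it and -0.50 for the 23 without, and in H1993 -0.31 and -0.27. POLR1A and POLR1B, which fell, hold none in this window. A match is a description of letters and says nothing of which factor binds there.

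Genes of late small subunit maturation fell in H1693, all 5 of them, and 2 of 5 fell in H1993. LTV1, which helps load proteins onto the small subunit before export, was at 10.48 and 10.45 on the control and 9.90 and 9.89 on the knockdown arrays of H1693, and at 9.97 and 10.04 against 9.55 and 9.61 in H1993. The changes were -0.57 (adjusted p = 0.000366) and -0.43 (adjusted p = 0.00186), and all 4 of its probe sets were negative in both lines. NOB1, the nuclease that makes the final cut of the small subunit RNA, fell by 0.57 and 0.41, from 11.78 and 11.77 to 11.18 and 11.22 in H1693 and from 11.26 and 11.38 to 10.99 and 10.83 in H1993. BYSL, bystin, a factor bound to precursors of the small subunit, and TSR1, a factor that keeps the immature subunit from translating, fell in H1693 by 0.52 and 0.45 and were at -0.13 and -0.10 in H1993. BYSL has 2 dim probe sets, and with all 3 averaged it was at -0.15 in H1693 (limma adjusted p = 0.178), while the other probe set of TSR1 was at 0.07 there. RRP12, an export factor, fell by 0.23 in H1693 (adjusted p = 0.0296), and its mean over both lines, -0.06, did not pass. Its 3 probe sets ran from -0.23 to 0.06 in H1693.

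**Figure D2:**
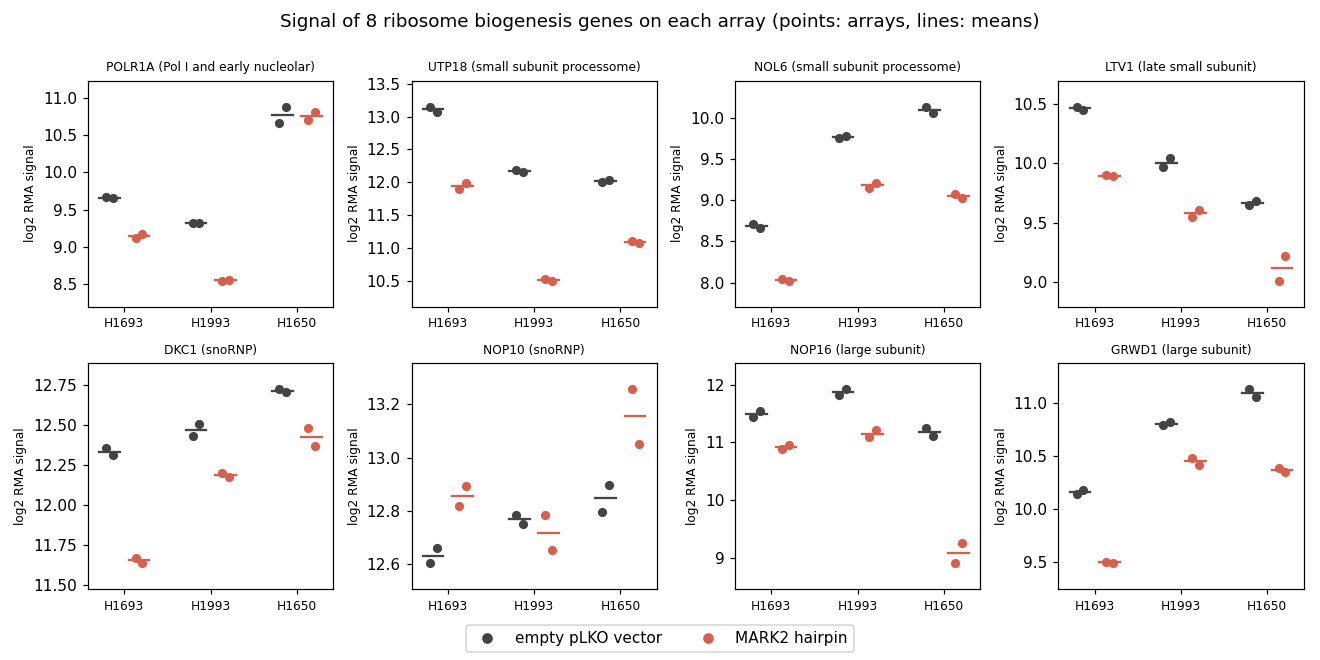
Signal (log2, y axis) of 8 genes on each of the 12 arrays, by line on the x axis, with points for arrays and short lines for group means. Knockdown arrays lie below the controls in H1693 and H1993 for 7 of the genes, and NOP10 is the exception, with knockdown arrays at 12.82 and 12.89 against 12.60 and 12.66 in H1693.

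Of 8 snoRNP genes, 5 fell in H1693 (median -0.38) and 4 in H1993 (median -0.15). The proteins of the particles that methylate ribosomal RNA (C/D type) are FBL, the methyltransferase fibrillarin, and its scaffold proteins NOP56 and NOP58. FBL fell by 0.33 in H1693 and 0.32 in H1993 (adjusted p = 0.00566 and 0.00627), from 13.63 and 13.62 to 13.28 and 13.31 and from 13.41 and 13.46 to 13.08 and 13.15. NOP56 and NOP58 fell by 0.38 and 0.41 in H1693 and were at -0.03 and -0.08 in H1993. The particles that turn uridine into pseudouridine (H/ACA type) hold DKC1, the enzyme dyskerin, with NHP2, GAR1 and NOP10. DKC1 had the largest fall of the step: it went from 12.35 and 12.31 to 11.67 and 11.64 in H1693 (-0.68, SE 0.06, adjusted p = 5.03e-05) and from 12.43 and 12.51 to 12.20 and 12.17 in H1993 (-0.28, adjusted p = 0.00728). Of its partners, 1 of 3 was called, in H1993. NHP2 was at -0.19 and -0.23 and passed in H1993 (adjusted p = 0.0497), GAR1 at -0.39 and -0.05 passed in neither line, with an SE of 0.15, and NOP10, the smallest change of the mean at 0.09, was at 0.23 (adjusted p = 0.0714) and -0.05. NOLC1, a chaperone of both kinds of particle, fell by 0.50 and 0.25, and its 3 probe sets reached -0.89 and -0.82.

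Large subunit genes fell in 12 of 14 cases in H1693 (median -0.57) and in 7 of 14 in H1993 (median -0.28). NOP16, a nucleolar factor of the large subunit, was at 11.44 and 11.55 on the control and 10.88 and 10.95 on the knockdown arrays of H1693, and at 11.83 and 11.93 against 11.09 and 11.21 in H1993. The groups do not overlap, and the changes were -0.58 (SE 0.11, adjusted p = 0.00296) and -0.73 (SE 0.11, adjusted p = 0.000726). Its probe sets ran from -0.69 to -0.12 and from -0.85 to 0.06. The upper ends are those of the dimmest, with a mean of 5.09, near the lower limit of 5. Its other bright probe set was at -0.69 and -0.85. GRWD1, a histone-binding and ribosomal protein chaperone, went from 10.14 and 10.18 to 9.50 and 9.49 in H1693 and from 10.79 and 10.82 to 10.48 and 10.41 in H1993, with all 3 probe sets negative in both. Its changes were -0.66 (adjusted p = 4.48e-05) and -0.36 (adjusted p = 0.00163).

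PPAN, peter pan, fell by 0.61 and 0.37, and NIP7, which acts in the processing of the large subunit RNA, by 0.39 and 0.57. The complex of PES1, BOP1 and WDR12, needed for the large subunit RNA, had members that were called in both lines, in 1 and in none. WDR12 fell in both lines (by 0.35 and 0.58, adjusted p = 0.00562 and 0.000306), BOP1 fell in H1693 (by 0.61, adjusted p = 0.000364) and was at -0.14 in H1993, and PES1 passed in neither (-0.20 and -0.17, SE 0.14). Of the others, NOP2, a methyltransferase of the large subunit RNA, RRS1, URB2 and MRTO4 fell in H1693, by 0.64, 0.61, 0.61 and 0.56, and BRIX1 and RRP1B fell in both lines. NPM1, nucleophosmin, an abundant nucleolar chaperone, had by its brightest probe set the smallest change of the mean, -0.09 (SE 0.04, adjusted p = 0.165). The signals of its brightest probe set ran from 13.96 to 14.16 in H1693 and H1993. The dimmest of its 6 probe sets, with a mean of 12.94, was at -0.61 in H1693 and -0.47 in H1993, while the other 5 lay between -0.19 and 0.02 over both lines. With all 6 probe sets averaged its mean over both lines passed, at -0.17.

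The fall was larger in H1693 than in H1993 for 36 of the 47 genes, and the difference between the lines passed for 15 of them. Of those 15, 14 fell less in H1993 (or were above 0 there), where 12.6% of all genes differed in that direction, and UTP18 fell more, where 9.48% did. The differences with H1993 minus H1693 were largest for URB2 (0.63, SE 0.18, adjusted p = 0.0325), WDR3 (0.59, SE 0.11, adjusted p = 0.00519), RRS1 (0.48), BOP1 (0.48) and NCL (0.44), and UTP18 was at -0.49 (SE 0.09, adjusted p = 0.00397). WDR3 went from 8.58 and 8.40 to 8.01 and 8.05 in H1693 and from 9.41 and 9.40 to 9.61 and 9.47 in H1993, so its knockdown arrays lie below the controls in the former and above them in the latter. Its other probe set was at -0.52 and -0.26. URB2, a nucleolar factor of the large subunit, went from 7.77 and 7.74 to 6.98 and 7.31 and, in H1993, from 7.76 and 7.80 to 7.95 and 7.67, where the groups overlap. The count of 15 depended on single arrays: it was 2 to 9 when any of the 8 arrays of these lines was left out, lowest without replicate 1 of the H1693 control, and 6 with replicate number as a block. The changes of the 47 genes in both lines had a Pearson correlation of 0.53 across genes, which are not independent, against 0.39 over all genes. The Spearman correlation was 0.377, against 0.385 over all genes, so by rank the list was no more alike between the lines. By step the Pearson correlation ran from 0.03 (14 large subunit genes) to 0.91 (5 late small subunit genes). The lines share no array, and UTP18, the lowest in both, lies far from the rest.

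**Figure D3:**
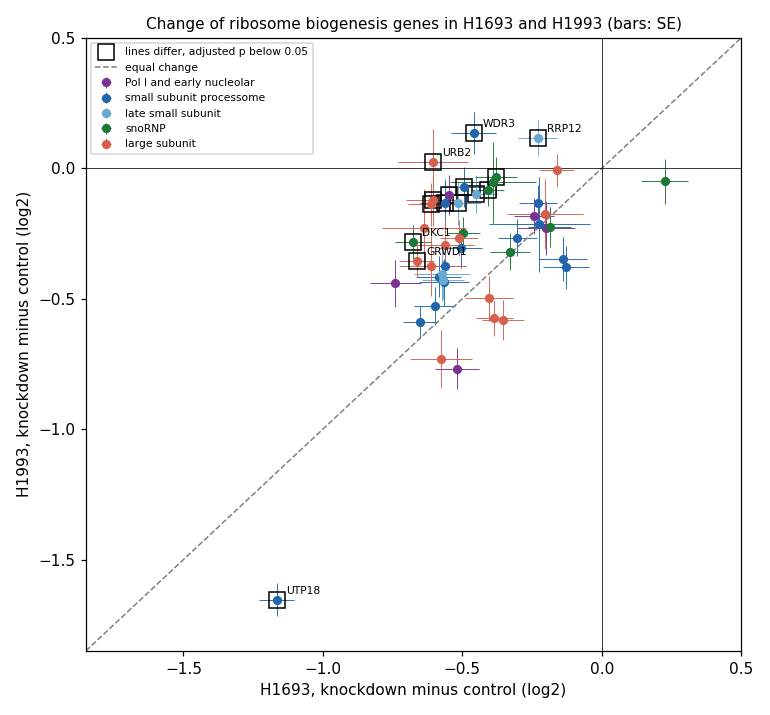
Change in H1993 (y axis) against change in H1693 (x axis), both knockdown minus control in log2, for the 47 genes, coloured by step, with SE bars. Points above the dashed line fell less in H1993, squares mark the 15 genes whose change differs between the lines, and UTP18, at -1.17 and -1.65, lies alone at the lower left.

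The lines also differed in the level of these genes before knockdown. Between the control arrays of H1993 and H1693, 35 of the 47 genes differed, 16 higher and 19 lower in H1993, where 63.0% of all genes differed, 30.1% higher and 32.9% lower. DDX10, an RNA helicase of the small subunit pathway, had the largest difference: its controls were at 13.37 and 13.34 in H1993, 9.82 and 9.75 in H1693 and 9.68 and 9.77 in H1650. H1993 was thus higher than H1693 by 3.57 (SE 0.07, limma adjusted p = 5.87e-11), an 11.9-fold difference, while the levels in H1693 and H1650 overlap. After knockdown DDX10 was at 13.29 and 13.15 in H1993 and 9.56 and 9.55 in H1693, small changes of -0.13 and -0.23 beside that gap. DCAF13 and NOL6 were higher in H1993 by 1.21 and 1.08, and RRP1B, a nucleolar scaffold for processing factors, was lower by 1.30 (11.18 and 11.06 against 12.46 and 12.37). UTP18 was lower in H1993 by 0.93, in the line where it then fell more.

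In H1650 the genes went both ways, and their probe sets did not agree. By the brightest probe set 22 of 47 fell and 11 rose, where 16.7% of all genes fell and 36.7% rose. The median was -0.16, against 0.15 over all genes. The change in H1650 differed from the mean change of the other lines for 34 of the 47, where 48.6% of all genes differed. After quantile normalisation, which took the median of all genes in H1650 to 0.04, 25 fell and 10 rose, and the share of rises among all genes called there went from 68.8% to 57.7%. The 3' minus 5' difference given above rose with the knockdown in this line, and its part in these changes was not tested. Of 34 genes with several probe sets, 17 had all of them on one side of 0, against 30 in H1693 and 28 in H1993. The gap between a gene's highest and lowest probe set had a median of 0.71 in H1650, against 0.13 in H1693 and 0.14 in H1993, and 0.53, 0.22 and 0.23 over all genes with several probe sets.

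The 3 largest falls in H1650 were those of UTP20 (-2.14, SE 0.07, adjusted p = 1.17e-07), NOP16 (-2.09) and BOP1 (-1.62). UTP20 was at 8.70 and 8.83 on the control and 6.57 and 6.68 on the knockdown arrays, and like BOP1 it has 1 probe set, so agreement cannot be read. NOP16 went from 11.26 and 11.11 to 8.92 and 9.26, with its 3 probe sets from -2.09 to 0.42. The 0.42 is that of the dimmest, with a mean of 5.09, and the remaining probe set was at -0.09. The 3 largest rises were those of GAR1 (0.86, probe sets from -1.52 to 0.86), UTP15 (0.54, probe sets from 0.28 to 0.64) and WDR75 (0.46, probe sets from 0.46 to 0.86). UTP15 went from 9.50 and 9.66 to 10.14 and 10.10, above its controls, while in H1693 and H1993 it fell.

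Averaging all probe sets turned the sign in H1650 for 9 of the genes named here, among them GAR1 (-0.33), NOP58 (-0.74), NOLC1 (-0.67) and RRP12 (-0.71). Genes whose probe sets were all negative in H1650 include NAT10 (-2.64 to -1.46), NOP2 (-1.44 to -1.24), RRN3 (-1.57 to -1.13), NOP56 (-0.68 to -0.47) and UTP18 (-0.93 and -0.14). By the brightest probe set, 12 of the 47 genes fell in all 3 lines, or 25.5%, against 2.23% of all genes. With UTP18 these include UTP20, NOL6, NAT10, LTV1, NOB1, FBL, DKC1, NOP16, GRWD1, PPAN and NIP7. For 4 of these the probe sets disagreed in sign in H1650: NIP7 (-0.31 and 0.54, and 0.12 with both averaged), LTV1 (-2.21 to 0.96), NOL6 (-1.05 to 0.14) and NOP16 (-2.09 to 0.42). UTP20, NOB1, FBL and PPAN have 1 probe set each, so agreement cannot be read for them. POLR1A, at 10.67 and 10.88 against 10.71 and 10.82, and POLR1B, at 10.39 and 10.63 against 10.55 and 10.51, overlapped between the groups in H1650.

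**Figure D4:**
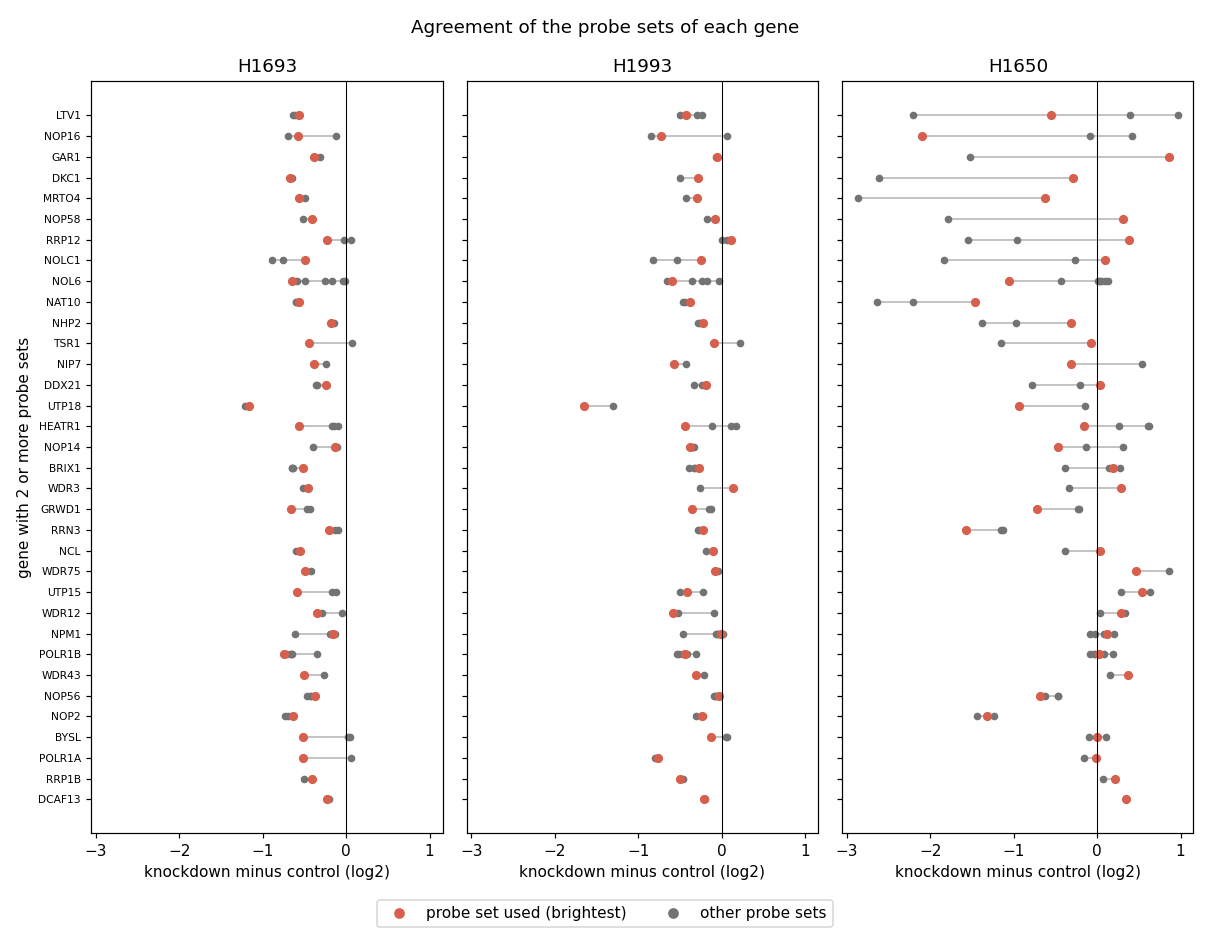
Change of every probe set (knockdown minus control, log2, x axis) of the 34 genes that have several, by line, with the brightest in red and a line from the lowest to the highest. The lines are short in H1693 and H1993 and reach from -2.21 to 0.96 for LTV1 in H1650.

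Other genes of the pathway, from lists drawn up beside the 47, also fell in H1693 and H1993 in a larger share than all genes. Of all genes, 15.9% fell and 17.1% rose in H1693, and 14.5% fell and 18.9% rose in H1993. Of 17 further polymerase I genes, 8 fell in H1693 (47.1%) and 4 in H1993 (23.5%). POLR1E and POLR1G, which join in the subunit pair that helps the enzyme start, fell by 0.69 and 0.72 in H1693 and by 0.84 and 0.47 in H1993. Of 35 further small subunit genes, 20 fell and 1 rose in H1693, and 14 fell in H1993, led for the mean of both by the helicase DHX37 (-0.60) and PNO1 (-0.59), the partner of NOB1. Of 11 further snoRNP genes, 6 fell and 1 rose in H1693, and 5 fell in H1993. TCOF1, treacle, which ties snoRNPs to polymerase I, fell by 0.85 and 0.24, and RUVBL1, an assembly ATPase, by 0.47 and 0.44.

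Of 42 further large subunit genes, 23 fell in H1693, and 17 fell and 3 rose in H1993, with NOL9, a kinase of the precursor RNA, at -0.67 and PAK1IP1 at -0.59 for the mean of both lines. Another list held the RNA exosome, which trims the precursor, and factors beside it, XRN2 among them. Of its 14 genes tested, 6 fell in H1693 and 7 in H1993, with the exosome core subunits EXOSC9 and EXOSC2 at -0.65 and -0.63 for the mean of both lines. Over these lists together, 63 of 119 genes (52.9%) fell in H1693, with a median of -0.29, where 15.9% of all genes fell. In H1993, 47 of them (39.5%) fell, with a median of -0.16, where 14.5% of all genes fell. Rises numbered 2 in H1693 and 3 in H1993, where 17.1% and 18.9% of all genes rose.

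Few ribosomal proteins, which the pathway assembles into subunits, were called. Of 66 tested of 79, 2 fell in H1693 (3.03%), where 15.9% of all genes fell. In H1993, 6 fell (9.09%) and 1 rose, where 14.5% of all genes fell and 18.9% rose. The medians were -0.02 and -0.06. In H1993, however, 60 of the 66 were below 0, as were 7621 of all 16205 genes. Both knockdown arrays lay below both controls there for 40 of the 66, where 29.0% of all genes did. In H1693, 38 of the 66 were below 0, as were 8692 of all 16205 genes. Both knockdown arrays lay below both controls in H1693 for 26 of them, where 36.1% of all genes did. RPL35A and RPLP2 had the largest called changes of the mean, -0.27 and -0.22. Ribosomal proteins have near-identical pseudogene copies that can share their probes, so these values are uncertain. The E-box was in 3 of 63 promoter windows of ribosomal protein genes, or 4.76%, and in 26 of 107 of the other pathway genes, or 24.3%.

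**Figure D5:**
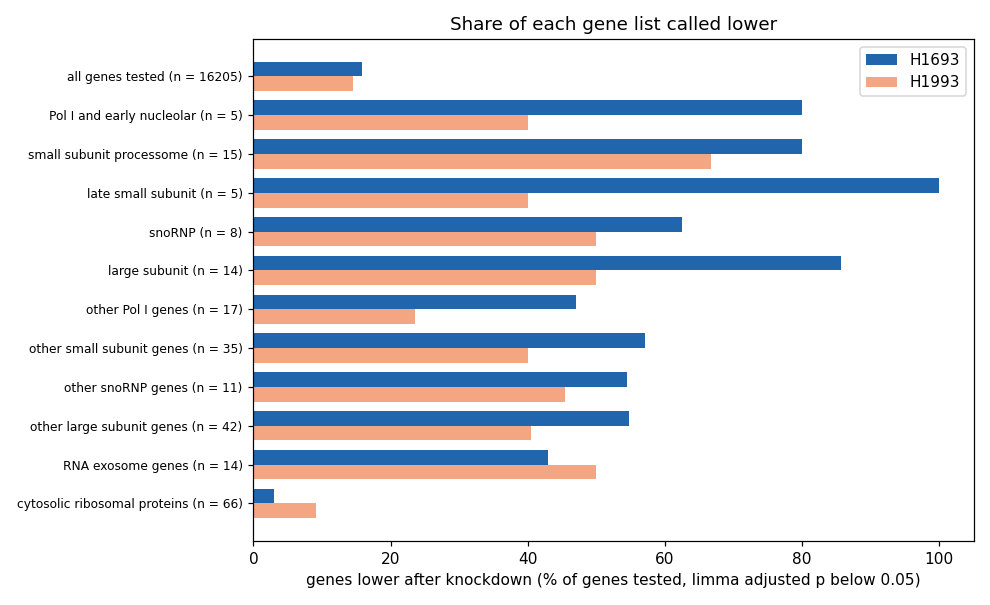
Share of each list called lower after knockdown (% of genes tested, x axis) in H1693 and H1993, with the number of genes tested beside each list. The steps of ribosome biogenesis lie between 40.0% and 100%, the further pathway lists between 23.5% and 57.1%, all genes at 15.9% and 14.5%, and ribosomal proteins at 3.03% and 9.09%.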

How the data were processed

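The authors deposited log2 signals of whole probe sets. The submitters' processing notes name RMA and Affymetrix Expression Console, with no version. RMA subtracts background, brings the arrays to a common distribution and summarises each probe set, and it compresses differences near background and near saturation. The table holds 49395 probe sets on 12 arrays, with array medians from 7.13 to 7.32. Symbols came from the platform annotation, and 44988 probe sets with 1 symbol were used. Probe sets with several symbols were left out. A gene entered the tests if 2 or more arrays were at 5 or above (log2).

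All 12 arrays entered a single limma model (version 3.58.1, R 4.3.3) with 6 group means, which left 6 residual and 3.52 prior degrees of freedom. Tests were two-sided, and p was adjusted by Benjamini-Hochberg over all 16205 genes. Named genes are, by step, up to 5 (steps of 16 listed genes) or 3 leading changes of the mean of H1693 and H1993, the smallest change, every difference between H1993 and H1693, the 3 leading falls and rises in H1650 and 2 leading genes of each further list. The remaining genes with values, such as DDX10, RRP1B and DCAF13, were chosen after their values were seen. The genes, lists and rules were chosen with earlier results of these data known. Replicate arrays had identical values in at most 0.0992% of probe sets. The fit was tested on simulated data with 200 genes changed, far fewer than were called in these data, so its shares need not hold here. In a single line it recovered 4% to 6% of changes of 0.25 (log2) and 60% to 64% of changes of 0.5. For the mean of H1693 and H1993 it recovered 30% and 86%. A gene that did not pass may therefore still have changed by such sizes. Alternatives were another floor, no floor, the mean of all probe sets, quantile normalisation, a replicate block, fits without H1650 or by line, and leaving out each array.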

Additional observations from a re-analysis of the deposited data

Results flagged for a closer look

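The change after knockdown differed between H1993 and H1693 (limma, adjusted p under 0.05) for 15 of the 47 genes. Of all genes, 12.6% differed with the higher change in H1993 and 9.48% with the lower. The count of 15 was smaller when any array of these lines was left out and with replicate number as a block, as given above. As H1993 minus H1693 on the log2 scale, the differences were 0.44 for NCL, 0.42 for WDR75, 0.43 for UTP4, -0.49 for UTP18, 0.59 for WDR3, 0.35 for TSR1, 0.38 for BYSL, 0.35 for RRP12, 0.35 for NOP56, 0.32 for NOP58, 0.39 for DKC1, 0.48 for BOP1, 0.48 for RRS1, 0.31 for GRWD1 and 0.63 for URB2. Both lines agree in sign for 12 of them, and WDR3, RRP12 and URB2 were above 0 in H1993.

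Control probe sets for the ribosomal RNAs themselves lie outside the gene tests. In H1693 the knockdown arrays were above the controls on all 3 probe sets for 18S RNA, by 0.26 (5' end), 0.17 (middle) and 0.32 (3' end), at 8.40 ± 0.02 against 8.14 ± 0.01 (log2, SD, n = 2) for the 5' end. In H1993 they were above the controls on the 3' probe set of 28S RNA, by 0.34. Other probe sets moved the opposite way with no overlap between the groups. In H1693 the 28S middle and 3' probe sets were at -0.25 and -0.26, and in H1993 the 28S 5', 18S 5' and 18S middle probe sets were at -0.31, -0.22 and -0.16. With 2 arrays against 2, an exact permutation test cannot reach a p under 0.05, and none was run. Probe sets of the same RNA also differed widely in level. In the H1693 control those of 28S RNA averaged 11.58 (5' end), 12.20 (middle) and 6.56 (3' end). These shifts are therefore not read as changes in the amount of ribosomal RNA.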

How the results depend on the processing

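The counts of genes that fell kept within 1.5 times in every setting run. Leaving out each array gave 33 to 40 genes lower in H1693, 17 to 27 in H1993, 21 to 23 in H1650 and 37 to 40 for the mean of H1693 and H1993, and 0 to 1 higher in H1693. That 1 gene is NOP10, which passed as a rise in H1693 after quantile normalisation, with each line fitted alone, over H1693 and H1993 only, and without either knockdown array of H1650. The count of rises in H1650, 11, was 6 to 12 over the left-out arrays, lowest without control replicate 1, and 7 with each line fitted alone. The count of differences between H1993 and H1693, 15, was 2 to 16, and 6 with the replicate block. With the block, 35 genes fell in H1693, 24 in H1993 and 22 in H1650. Same-numbered control and knockdown arrays deviated together with correlations of -0.18, 0.29 and -0.11 in H1693, H1993 and H1650, above 0.1 in H1993 only, so the numbers were not taken to pair the samples. Averaging all probe sets turned the change in H1650 to -0.18 for NCL, -0.32 for DDX21, 0.33 for HEATR1, -0.024 for WDR3, -0.71 for RRP12, -0.67 for NOLC1, 0.12 for NIP7, -0.74 for NOP58 and -0.33 for GAR1. Over all named changes and settings, 2852 kept their call, 152 lost it, 23 gained it and 9 reversed. Quantile normalisation moved the median of all genes in H1650 from 0.15 to 0.04 and left 25 genes lower and 10 higher. It took the share of rises among all calls there from 68.8% to 57.7%. Signals near background and saturation limit what could be measured.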

Other observations

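The ribosomal RNA control probe sets gave no uniform picture over the lines. The 28S middle probe set was at 12.20 ± 0.01 (log2, SD, n = 2) in the H1693 control and 11.96 ± 0.14 in the knockdown arrays, and at 11.78 ± 0.08 and 11.72 ± 0.02 in H1993. The 18S 5' probe set in H1993 was at 8.90 ± 0.10 and 8.68 ± 0.08, below its controls, opposite to H1693. In H1650 all 6 of these probe sets overlapped between the groups.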
